A study of Homo sapiens with 16 samples.

Results

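Afatinib and paclitaxel were compared directly in MDA-MB-231 cells. This established line was derived from a metastatic triple-negative breast tumour and has mesenchymal features. The 8 libraries compared, of 16 in the series, were chosen by their treatment labels: 4 of cells treated with afatinib and 4 of cells treated with paclitaxel (spelled Pacliataxel in the labels), replicates 1 to 4 of each. The other 8 libraries, 4 with DMSO and 4 with both drugs together, entered only 1 alternative fit of all 16 libraries, and DMSO levels are given only as a reference. Gene counts came from RNA sequencing, and the sources used here give neither dose nor exposure time for any group. Doxorubicin is also named among the drugs obtained for the study, but no sample label carries it. Nothing in the labels says that the replicates were separate cultures, so p-values measure the spread between these libraries, which may be technical. All libraries come from the same cell line, so the values describe this line and not breast cancer at large.

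Afatinib is an irreversible inhibitor of the kinases of the epidermal growth factor receptor (EGFR) family. These receptors, once bound by ligands that are shed from the cell surface, signal through the RAS, RAF, MEK and ERK kinases and through PI3K to growth genes, among them cyclin D1, ERK phosphatases and further EGFR ligands. Paclitaxel binds β-tubulin inside the microtubule and stabilises it, so that spindles fail to satisfy the spindle assembly checkpoint and cells are held in mitosis or leave it without dividing properly.

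Library totals of the 8 samples lay between 28366004 and 45406782 counts, with paclitaxel replicate 4 the lowest. The labelled RNA concentration split each group into replicates 1 and 2 and replicates 3 and 4, called concentration sets below, and this set was a term of the reported fit. Concentration was higher with afatinib in the first set (mean 1002 against 388 ng/µl) and lower in the second (184 against 252 ng/µl), so drug and concentration were aligned one way in the first set and the other way in the second. The share of counts from mitochondrially encoded genes was 4.98% ± 2.50 (SD, n = 4) with afatinib and 4.94% ± 2.25 with paclitaxel (2-sided exact permutation test within sets, p = 1, the smallest possible being 0.0556). Markers of the cell line summed to 6899 to 8597 CPM (counts scaled to library size with TMM factors) with afatinib and 7451 to 9006 with paclitaxel. The luminal breast markers summed to 16.5 to 19.7 CPM with afatinib and 19.1 to 20.0 with paclitaxel, the fibroblast markers to 13.0 to 23.3 and 14.4 to 25.6, the blood cell markers to 262 to 459 and 263 to 483, and the endothelial markers to 69.0 to 112 and 84.0 to 154. LAPTM5 made up most of the blood sum and ROBO4 most of the endothelial sum. PTPRC, CD3E, COL1A2, COL3A1, TEK and EMCN had at most 12 counts in any of the 8 libraries, and the endothelial markers PECAM1, CDH5, VWF, KDR and CLDN5 had group means of 0.213 to 2.24 CPM. Of 6 tested endothelial markers 4 were called higher with paclitaxel (median −0.39), as were 1 of 3 blood, 1 of 2 fibroblast and 1 of 6 luminal markers, and 2 luminal markers were higher with afatinib. Over all tested genes, 18.5% were called higher with paclitaxel and 20.6% higher with afatinib. The part of these markers in the results was not tested.

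Direct comparison of both drugs asked which transcripts tell EGFR-family inhibition from microtubule stabilisation. Of 37864 genes in the table, 17274 had enough counts to be tested, and 6755 (39.1%) differed at an adjusted p under 0.05. Of these, 3566 (20.6% of the tested genes) were higher with afatinib and 3189 (18.5%) were higher with paclitaxel. Most differences were small. The median absolute log2 difference of the called genes was 0.33, and 208 genes (1.20%) differed by more than 1.5-fold in a test that takes this fold as the null, 100 higher with afatinib and 108 higher with paclitaxel. Throughout, a difference is log2 of afatinib minus paclitaxel ± SE, so that positive values are higher with afatinib. Gene lists are described by counts and medians. Their counts stand beside 39.1% of all tested genes called, 20.6% higher with afatinib and 18.5% higher with paclitaxel. The members named from them are mostly those with the smallest p, and 53 of the genes named below, among them NFKBIA, BIRC3, CSF2, PLK1, AURKA, KIF20A, CDC25A and most members named as not called, were chosen after their values were seen. In bulk RNA, fewer cells of a state and less RNA per cell cannot be told apart.

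Differences were correlated between the concentration sets. Across the 17274 genes, those measured in replicates 1 and 2 and those in replicates 3 and 4 correlated with a Pearson r of 0.67, genes not being independent replicates. No gene passed the edgeR test of whether its difference itself differed between the sets (0%, smallest adjusted p = 0.418), and 0 passed by DESeq2. In the edgeR test 686 had an unadjusted p under 0.05. This is a smaller share of the 17274 genes than the 0.05 that the threshold passes where no gene differs. Leaving out a library gave 0 to 10 genes called in the edgeR test, with 10 without afatinib replicate 2, 5 without paclitaxel replicate 1, 2 without paclitaxel replicate 2 and 9 without paclitaxel replicate 4. Genes with the smallest p in this test were CCRN4L (−0.08 within replicates 1 and 2 and −0.77 within replicates 3 and 4), TUFT1 (−0.15 and −0.68), AGAP10 (−0.93 and 0.00), PTBP2 (−0.62 and 0.08) and MYC (0.17 and −0.28). The overall call of CCRN4L was lost without afatinib replicate 3 (0.0668), and with the replicate number as a block the adjusted p was 0.176 for CCRN4L and 0.0515 for TUFT1. The calls of CCRN4L and TUFT1 were lost within replicates 1 and 2 alone. Between all 4 libraries of each drug, AGAP10 was called without afatinib replicate 4 (−0.54, adjusted p = 0.0184) and paclitaxel replicate 3 (−0.58, adjusted p = 0.00884), PTBP2 without afatinib replicate 4 (−0.36, adjusted p = 0.0174) and paclitaxel replicate 3 (−0.37, adjusted p = 0.0208) and MYC without afatinib replicate 1 (−0.15, adjusted p = 0.0405). Without the set as a term, 853 genes were called, all of them also called with it and in the same direction, so calls below rest on comparing the drugs within sets.

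**Figure D1:**
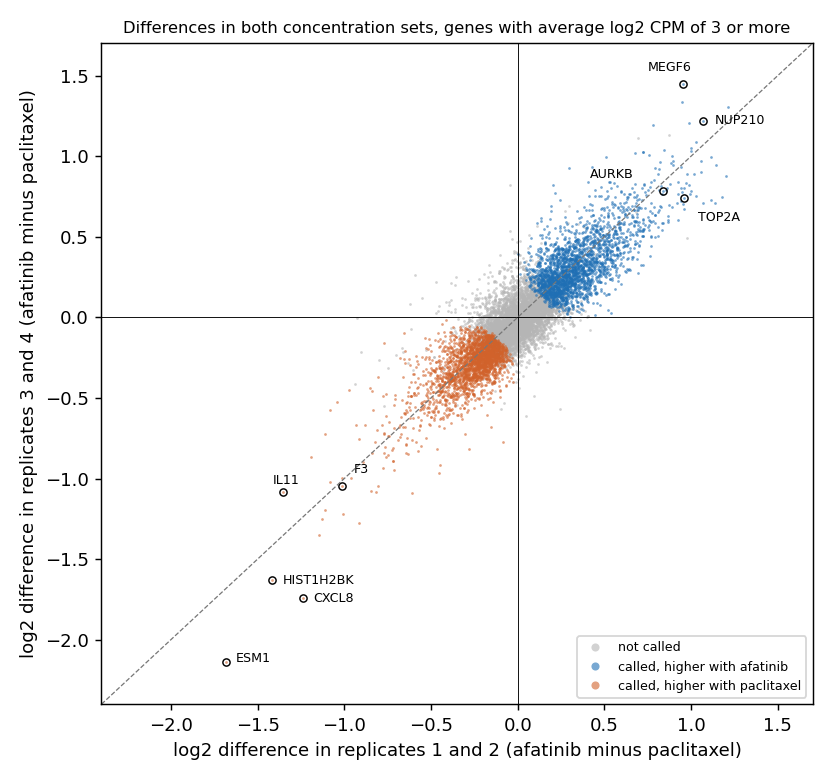
Log2 difference (afatinib minus paclitaxel) in replicates 3 and 4 against that in replicates 1 and 2 for the 9766 tested genes with an average log2 CPM of 3 or more, coloured by call. Circles mark named genes, and the dashed line is equality. Called genes lie in the lower left and upper right.

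Among well-measured genes (average log2 CPM of at least 3), ESM1, HIST1H2BK and CXCL8 had the largest called differences, all higher with paclitaxel. ESM1 (ENSG00000164283, chromosome 5, 54977864 to 55022671), which encodes the secreted proteoglycan endocan, measured 4.26, 4.54, 5.11 and 5.93 CPM with afatinib and 12.4, 16.1, 21.5 and 27.1 CPM with paclitaxel. Every paclitaxel library lay above every afatinib library, and the difference was −1.92 ± 0.12 (adjusted p = 4.53e-09). CXCL8 (ENSG00000169429, chromosome 4, 73740506 to 73743716), the neutrophil chemokine interleukin 8, measured 42.9, 18.8, 33.3 and 35.4 CPM with afatinib and 66.6, 79.5, 89.6 and 139 CPM with paclitaxel. Its groups did not overlap, yet the spread within them was wide, with afatinib replicate 2 the lowest and paclitaxel replicate 4 the highest (−1.49 ± 0.32, adjusted p = 0.0166). The CXCL8 call was lost without afatinib replicate 3 (0.0604) and afatinib replicate 4 (0.0589), adjusted p in brackets. IL11 (ENSG00000095752, chromosome 19, 55364389 to 55370463), a cytokine of the interleukin 6 family, measured 72.9, 70.5, 80.5 and 73.0 CPM with afatinib and 176, 193, 149.7 and 174 CPM with paclitaxel. All 4 afatinib libraries lay close together and well below all 4 paclitaxel libraries (−1.22 ± 0.07, adjusted p = 9.16e-11).

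Of the remaining genes among the 15 with the largest difference in this direction, F3 (ENSG00000117525, chromosome 1, 94529225 to 94541800), the tissue factor that starts the extrinsic clotting cascade, measured 143, 148, 245 and 233 CPM with afatinib and 291, 299, 455 and 528 CPM with paclitaxel. Both sets gave nearly the same difference although levels were higher in replicates 3 and 4 (−1.03 ± 0.05, −1.01 within replicates 1 and 2 and −1.05 within replicates 3 and 4). TRIM25, a ubiquitin ligase of the RIG-I antiviral pathway, measured 80.1, 101, 91.5 and 83.8 CPM with afatinib and 194, 199.9, 209.6 and 189 CPM with paclitaxel, with no overlap and little spread (−1.15 ± 0.06, adjusted p = 9.16e-11). FUBP1, a nucleic acid binding protein known from the control of MYC, differed by −1.05 ± 0.06. IGFBP3, which binds insulin-like growth factors, differed by −1.12 ± 0.07, PTGS2, the inducible cyclooxygenase, by −1.19 ± 0.12, ADAMTS6, a secreted metalloprotease, by −1.25 ± 0.10, and RRAD, a small RAS-related GTPase, by −0.98 ± 0.07. THBS1, the matrix protein thrombospondin 1, measured 545, 433, 959 and 889 CPM with afatinib and 1091, 892, 1709 and 1956 CPM with paclitaxel and was higher with paclitaxel within each set (adjusted p = 1.24e-07). TATDN2P2, a pseudogene whose reads may stem from its parent gene, differed by −1.02 ± 0.11. ADAMTS1, another secreted metalloprotease, differed by −1.10 ± 0.28 (adjusted p = 0.0284), a call that was lost without afatinib replicate 2 (0.0518), afatinib replicate 3 (0.0866), afatinib replicate 4 (0.0873), paclitaxel replicate 1 (0.0809), paclitaxel replicate 3 (0.0642) and paclitaxel replicate 4 (0.0744). The calls of CXCL8 and ADAMTS1 were lost within replicates 1 and 2 alone, that of CXCL8 within replicates 3 and 4 alone, and that of ADAMTS1 without the filter on low counts and with log2 RNA concentration added. The mean of the DMSO libraries was nearer to the paclitaxel mean for 12 of these 15 genes, and for 3 it was nearer to afatinib. HIST1H2BK and AREG belong to groups described below.

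The 15 well-measured genes with the largest difference in favour of afatinib have varied known roles. NUP210 (ENSG00000132182, chromosome 3, 13316235 to 13420309), a membrane protein of the nuclear pore, measured 64.1, 67.7, 137 and 122 CPM with afatinib and 30.9, 32.4, 54.2 and 56.6 CPM with paclitaxel. Every afatinib library lay above every paclitaxel library, and levels were higher in replicates 3 and 4 with both drugs (1.14 ± 0.06, adjusted p = 1.43e-12). FLOT2 (ENSG00000132589, chromosome 17, 28879335 to 28897679), the membrane raft protein flotillin 2, measured 120.4, 102, 94.7 and 89.5 CPM with afatinib and 56.1, 41.3, 52.4 and 47.1 CPM with paclitaxel. Its groups did not overlap, and the difference was 1.04 ± 0.11. MEGF6, a protein with EGF-like repeats, differed by 1.20 ± 0.09, MXD3, a partner of MAX that competes with MYC, by 1.14 ± 0.09, GBP2, an interferon-induced GTPase, by 1.10 ± 0.09, and ABCC3, an organic anion efflux pump, by 0.99 ± 0.09. PPP1R3E, a glycogen-targeting subunit of protein phosphatase 1, differed by 1.06 ± 0.10, SLC16A13, of the monocarboxylate transporter family, by 1.03 ± 0.10, and NEURL1B, a ubiquitin ligase of the Notch pathway, by 0.96 ± 0.15. DCAKD (1.06 ± 0.09), NIPSNAP3A (1.02 ± 0.08) and TRANK1 (1.02 ± 0.10) are less well characterised. MT-TN, the mitochondrial asparagine tRNA (1.26 ± 0.25), ZBED5-AS1 (1.05 ± 0.09), which is antisense to ZBED5, and TRIM16L (0.98 ± 0.06), a near copy of TRIM16, may share reads with neighbouring or related genes. Here the DMSO mean was nearer to afatinib for 10 of the 15 genes and nearer to paclitaxel for 5.

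**Figure D2:**
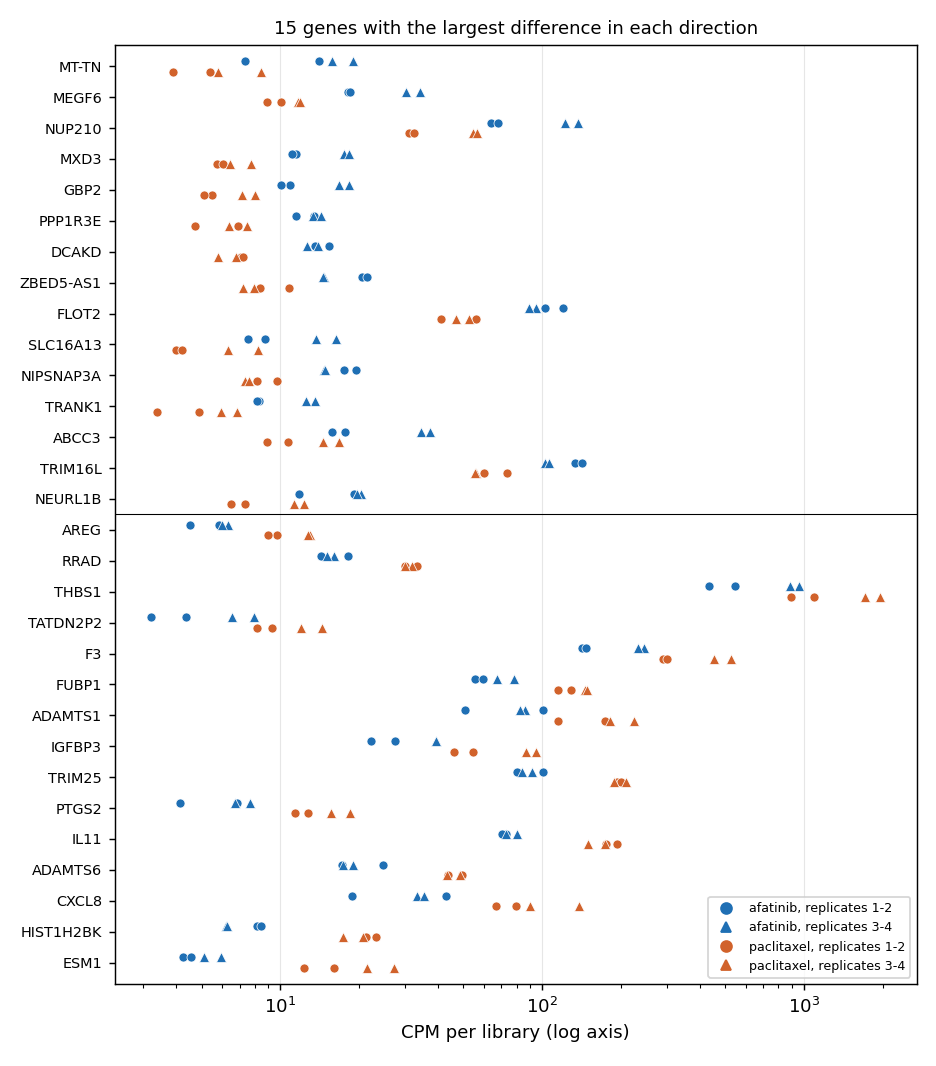
CPM in each of the 8 libraries (log axis) of the 15 genes with the largest called difference in each direction, average log2 CPM of at least 3. Circles are replicates 1 and 2 and triangles replicates 3 and 4, blue with afatinib and orange with paclitaxel. Genes under the line are higher with paclitaxel, among them IL11 with 70.5 to 80.5 CPM against 149.7 to 193 CPM.

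Among the EGFR family receptors, the targets of afatinib, EGFR (ENSG00000146648, chromosome 7, 55019021 to 55211628) measured 511, 493, 951 and 894 CPM with afatinib and 441, 429.9, 712 and 802 CPM with paclitaxel. Afatinib libraries were higher within each set but the groups overlapped across sets, since levels in replicates 3 and 4 were higher with both drugs (0.25 ± 0.05, adjusted p = 0.000826). ERBB2 measured 51.4, 53.2, 94.3 and 84.6 CPM with afatinib and 56.3, 55.9, 86.4 and 84.6 CPM with paclitaxel, with overlapping groups and a difference of −0.02 ± 0.05 (adjusted p = 0.837). ERBB3, the kinase-impaired partner, measured 1.08, 0.940, 2.30 and 2.50 CPM with afatinib and 0.854, 0.854, 1.72 and 1.07 CPM with paclitaxel. Its difference was 0.52 ± 0.18 (adjusted p = 0.0263), 0.25 within replicates 1 and 2 and 0.73 within replicates 3 and 4, and the call was lost without afatinib replicate 3 (0.0681), afatinib replicate 4 (0.101) and paclitaxel replicate 4 (0.137), adjusted p in brackets. The call of ERBB3 was lost within replicates 1 and 2 alone and with DESeq2. ERBB4, with 1 to 6 counts in a library, was too low to test. Per length, mean levels with afatinib were 55.0 FPKM for EGFR, 6.87 for ERBB2 and 0.197 for ERBB3, against 46.0, 6.86 and 0.130 with paclitaxel.

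5 of the EGFR ligand genes were lower with afatinib than with paclitaxel. Of 9 ligands, 8 were tested, 5 were called higher with paclitaxel and 1 higher with afatinib, where the shares over all tested genes were 18.5% and 20.6%, and their median difference was −0.44 against 0.00 over all genes. AREG, amphiregulin (ENSG00000109321, chromosome 4, 74445134 to 74455009), measured 5.83, 4.52, 6.32 and 5.98 CPM with afatinib and 9.75, 8.96, 13.0 and 12.8 CPM with paclitaxel. No afatinib library reached the lowest paclitaxel library (−0.96 ± 0.10, adjusted p = 5.14e-08). EREG, epiregulin (ENSG00000124882, chromosome 4, 74365143 to 74388751), lies near AREG and measured 13.0, 13.4, 21.1 and 20.0 CPM with afatinib and 21.7, 22.9, 31.6 and 36.6 CPM with paclitaxel. Again the groups stood apart (−0.74 ± 0.07, adjusted p = 1.18e-08). HBEGF, heparin-binding EGF, differed by −0.54 ± 0.07 and TGFA, transforming growth factor α, by −0.35 ± 0.05, both without overlap. In DMSO, AREG stood at 5.93 to 8.68 CPM and EREG at 12.4 to 24.9 CPM, while HBEGF stood at 129 to 183 CPM and TGFA at 126 to 143 CPM. EGF itself was low, at 0.633, 0.872, 1.82 and 1.30 CPM with afatinib and 1.42, 1.62, 1.87 and 1.74 CPM with paclitaxel, with overlapping groups (−0.58 ± 0.19, adjusted p = 0.0191). Its call was lost without afatinib replicate 1 (0.0837), afatinib replicate 4 (0.0589) and paclitaxel replicate 2 (0.0583). The call of EGF was lost within replicates 3 and 4 alone, with limma on the authors' corrected log2 values and with log2 RNA concentration added.

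The exception among the ligands was BTC, betacellulin (ENSG00000174808, chromosome 4, 74744759 to 74794686), which measured 2.23, 2.55, 2.33 and 2.50 CPM with afatinib and 1.42, 1.49, 1.48 and 1.48 CPM with paclitaxel. It was higher in every afatinib library than in any paclitaxel library (0.71 ± 0.14, adjusted p = 0.000406), and DMSO libraries lay at 1.13 to 1.32 CPM. The neuregulins NRG1 (−0.14 ± 0.07, adjusted p = 0.118) and NRG2 (0.23 ± 0.23, adjusted p = 0.465) were not called, NRG1 being called without paclitaxel replicate 2 (−0.19, adjusted p = 0.029) and paclitaxel replicate 3 (−0.19, adjusted p = 0.0472). EPGN, epigen, had at most 6 counts and was not tested.

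**Figure D3:**
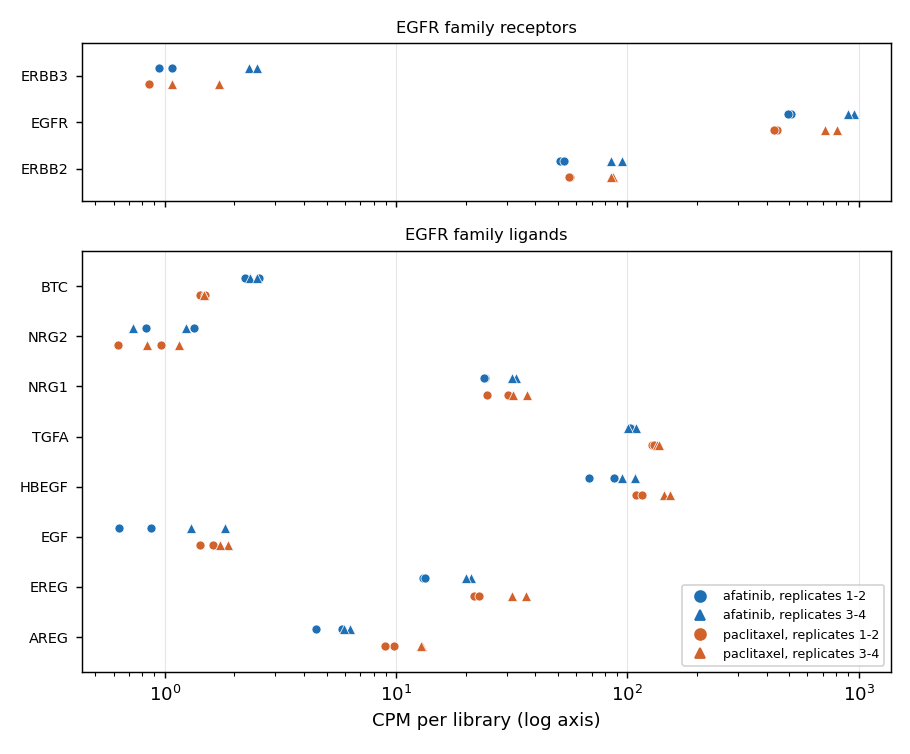
CPM in each of the 8 libraries (log axis) of the tested EGFR family receptors and ligands, in order of their difference. Circles are replicates 1 and 2 and triangles replicates 3 and 4, blue with afatinib and orange with paclitaxel. AREG, EREG, HBEGF and TGFA are shifted to the right with paclitaxel and BTC with afatinib, while ERBB2, NRG1 and NRG2 overlap.

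Feedback regulators of the receptors gave 3 genes higher with paclitaxel and 1 higher with afatinib of 9 tested, 44.4% called against 39.1% of all genes. ERRFI1, which encodes the EGFR inhibitor MIG6, measured 151, 125, 113 and 112 CPM with afatinib and 185, 194, 161 and 147 CPM with paclitaxel and was lower with afatinib within each set (−0.45 ± 0.06, adjusted p = 1.22e-06). CBL, the ubiquitin ligase that sends EGFR to degradation, differed by −0.46 ± 0.06, SOCS2 by −0.41 ± 0.10, and LRIG3 by 0.44 ± 0.10. Of 19 genes of MAPK/ERK output, 9 were higher with paclitaxel and 3 higher with afatinib (median −0.14), the 9 becoming 5 without afatinib replicate 4. CCND1, cyclin D1 (ENSG00000110092, chromosome 11, 69641087 to 69654474), measured 532, 525, 449 and 451 CPM with afatinib and 644, 648, 619 and 543 CPM with paclitaxel. Every afatinib library was below every paclitaxel library (−0.33 ± 0.05, adjusted p = 2.67e-05). ETV4, an ETS factor downstream of ERK, differed by −0.33 ± 0.06, EPHA2, an ephrin receptor, by −0.36 ± 0.06, and SPRY4, a Sprouty inhibitor of the pathway, by −0.31 ± 0.06.

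ERK feedback genes did not all move one way. DUSP6, the cytosolic ERK phosphatase, was higher with afatinib (0.38 ± 0.07, adjusted p = 0.000311), as were SPRY1 (0.69 ± 0.09) and ETV1 (0.71 ± 0.07). The DMSO mean of DUSP6 was 46.5 CPM, above the means with afatinib (37.1 CPM) and with paclitaxel (28.6 CPM). Those of SPRY1 (9.39 CPM) and ETV1 (22.8 CPM) lay between the means of the drugs. ETV1 measured 27.4, 28.3, 25.7 and 26.2 CPM with afatinib and 17.5, 17.2, 16.7 and 14.3 CPM with paclitaxel, with a narrow spread and no overlap. ETV5 (0.00 ± 0.05) and PHLDA1 (0.02 ± 0.05) were not called. Immediate-early and AP-1 factors gave 6 of 17 genes higher with paclitaxel and 2 higher with afatinib (median −0.13, 47.1% called against 39.1% of all genes), the 6 becoming 3 without afatinib replicate 4. JUND measured 86.0, 72.1, 84.5 and 72.6 CPM with afatinib and 55.6, 42.3, 48.7 and 45.0 CPM with paclitaxel and was higher with afatinib without overlap (0.72 ± 0.08, adjusted p = 1.49e-05), as was KLF6 within each set (0.34 ± 0.06). JUNB (−0.39 ± 0.09), KLF4 (−0.31 ± 0.06) and EGR2 (−1.26 ± 0.34), with under 1 CPM in every library, were higher with paclitaxel. Without afatinib replicate 1 the EGR2 difference was −1.95. EGR1 (−0.13 ± 1.06, adjusted p = 0.94) and FOS (0.36 ± 0.32, adjusted p = 0.434) were not called. Among paclitaxel libraries both were highest in replicate 1, and FOS was called without paclitaxel replicate 1 (0.71, adjusted p = 6.01e-06). The calls of SOCS2, LRIG3, SPRY4, DUSP6, JUNB, KLF4 and EGR2 were lost within replicates 1 and 2 alone, and that of EPHA2 with limma on the authors' corrected log2 values.

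Inflammatory cytokines and NF-kB target genes formed one of the lists with the most members higher with paclitaxel. NF-kB factors are held in the cytoplasm by IκB proteins and, once freed, switch on chemokine and cytokine genes together with their own inhibitors. Of 23 tested members 17 were higher with paclitaxel and 3 higher with afatinib, and the median difference was −0.45 (−0.48 and −0.47 in both sets). CXCL1 (ENSG00000163739, chromosome 4, 73869393 to 73871242), a neutrophil chemokine, measured 40.9, 36.4, 48.0 and 50.4 CPM with afatinib and 63.9, 73.3, 91.8 and 116 CPM with paclitaxel. The groups were apart, with paclitaxel replicate 4 the highest (−0.95 ± 0.08, adjusted p = 8.51e-07). TNFAIP3, the ubiquitin-editing inhibitor A20, measured 30.7, 27.4, 28.3 and 30.8 CPM with afatinib and 47.6, 48.5, 52.9 and 56.3 CPM with paclitaxel. It hardly varied within groups and differed by −0.80 ± 0.06, while DMSO libraries lay at 29.1 to 35.1 CPM, close to afatinib. LIF, a cytokine of the interleukin 6 family, differed by −0.52 ± 0.05, TNFAIP2 by −0.45 ± 0.05, and CXCL3 (−0.85 ± 0.12), IL1A (−0.92 ± 0.12), IL1B (−1.39 ± 0.17) and CCL20 (−1.96 ± 0.46) went the same way. Of the members named in this paragraph, TNFAIP3 alone had a DMSO mean nearer to afatinib. The DMSO means of the others were nearer to paclitaxel. CXCL1 averaged 115 CPM in DMSO, 43.9 with afatinib and 86.3 with paclitaxel, and LIF 162, 115 and 164 CPM.

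The 3 members that were higher with afatinib were NFKBIA, BIRC3 and CSF2. NFKBIA, which encodes the inhibitor IκBα, measured 148, 147, 133 and 132 CPM with afatinib and 90.8, 98.8, 106 and 109.6 CPM with paclitaxel. Its groups did not overlap (0.47 ± 0.06, 0.65 within replicates 1 and 2 and 0.29 within replicates 3 and 4). BIRC3, an inhibitor of apoptosis protein, differed by 0.42 ± 0.06 and CSF2, the growth factor GM-CSF, by 0.48 ± 0.11. The call of CSF2 was lost within replicates 1 and 2 alone, and that of CCL20 within replicates 3 and 4 alone. Promoter sequences were read for these genes because the list moved largely together. In the 250 bases before the start of the gene, 10 of 19 members with an entry in the RefSeq table held 1 of 4 NF-kB motifs (GGGACTTTC, GGGATTTCC, GGAATTTCC or GGAAATTCC, either strand, an entry with several matches counted once), against 1.11% of all 27305 promoters. The share was 7 of 14 among members higher with paclitaxel, 2 of 3 among those higher with afatinib, and 1 of 2 among those not called. Since the list was chosen as NF-kB targets and inflammatory cytokines, its excess over all promoters does not bear on the drugs. The last 150 bases before the start of CXCL1 (chr4:73869243-73869392, + strand) and CXCL8 (chr4:73740419-73740568, + strand), from RefSeq on GRCh38.p14, are shown with the match in capitals; the match reads GGAATTTCC and, on the other strand, GGAAATTCC.
CXCL1: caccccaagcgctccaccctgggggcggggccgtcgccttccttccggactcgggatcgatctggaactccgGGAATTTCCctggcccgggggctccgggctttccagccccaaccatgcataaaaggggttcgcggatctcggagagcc
CXCL8: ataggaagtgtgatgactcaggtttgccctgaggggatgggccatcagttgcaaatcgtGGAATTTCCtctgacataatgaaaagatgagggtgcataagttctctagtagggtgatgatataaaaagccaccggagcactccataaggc
Both chemokine genes hold the same 9 letters, 78 and 91 bases before the RefSeq start, and both were higher with paclitaxel. The RefSeq start of CXCL8 lies inside the gene as positioned by GENCODE above, so its distance depends on the start chosen. The last 150 bases before the start of IL11, also higher with paclitaxel, held no match.

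Most listed genes of the actin cytoskeleton were called higher with paclitaxel. The serum response factor SRF, with its actin-sensing cofactors, drives genes of contractile actin, and 12 of 17 tested members of this list were higher with paclitaxel and 0 higher with afatinib, 5 not being called (median −0.33). ACTG1, γ-actin (ENSG00000184009, chromosome 17, 81509971 to 81523847), measured 3957, 3534, 3209.7 and 3178 CPM with afatinib and 6547, 5919.6, 5817 and 5419.8 CPM with paclitaxel. All afatinib libraries were below all paclitaxel libraries by a wide gap (−0.77 ± 0.06, adjusted p = 1.36e-09). ACTB, β-actin, differed by −0.51 ± 0.06, so neither actin gene was level between these drugs. SRF itself measured 93.3, 92.5, 76.8 and 75.4 CPM with afatinib and 126, 123, 115 and 106 CPM with paclitaxel, without overlap (−0.48 ± 0.05), and CALD1, caldesmon, differed by −0.54 ± 0.05 and TPM4, a tropomyosin, by −0.52 ± 0.06. Not called were FLNA (−0.09 ± 0.06), TPM2 (−0.03 ± 0.12), ACTA2 (0.04 ± 0.21) and VCL (0.11 ± 0.06).

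Targets of the YAP and TEAD factors, which respond to cell shape and density, were divided. Of 16 members 7 were higher with paclitaxel, 3 were higher with afatinib and 6 were not called (median −0.11). LATS2, the kinase that restrains YAP, measured 86.5, 81.1, 76.0 and 80.9 CPM with afatinib and 120.0, 122, 114 and 102 CPM with paclitaxel and was higher with paclitaxel without overlap (−0.50 ± 0.05). DLC1, a GTPase-activating protein, differed by −0.42 ± 0.05, PTPN14 by −0.35 ± 0.06 and TGFB2 by −0.34 ± 0.06. The most used targets CYR61 (0.00 ± 0.12, adjusted p = 0.997) and CTGF (−0.45 ± 0.19, adjusted p = 0.122) were not called, CTGF being called without afatinib replicate 1 (−0.63, adjusted p = 0.00029), and AXL was higher with afatinib (0.21 ± 0.06). The letters GGAATG, to which TEAD factors bind, stood in the 250 bases before the start of 8 of 13 members on either strand, against 12.1% of all promoters, in 3 of 7 higher with paclitaxel, 1 of 2 higher with afatinib and 4 of 4 not called. Since the list was chosen as YAP and TEAD targets, this excess does not bear on the drugs. The call of AXL was lost within replicates 3 and 4 alone, and that of TGFB2 with limma on the authors' corrected log2 values.

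Proteases and the plasminogen system showed the largest single difference of all listed genes. SERPINB2 (ENSG00000197632, chromosome 18, 63871692 to 63903890), the plasminogen activator inhibitor PAI-2, measured 0.305, 0.224, 0.505 and 0.273 CPM with afatinib and 5.77, 4.29, 6.35 and 7.88 CPM with paclitaxel. Paclitaxel libraries were higher by a mean of 18.6-fold (−4.21 ± 0.19, adjusted p = 3.84e-13), and DMSO libraries lay in between, at 1.38 to 2.88 CPM. Of 15 tested members 12 were higher with paclitaxel and 1, TIMP2 (0.16 ± 0.05), higher with afatinib, no longer called when leaving out afatinib replicate 2 (0.0581), afatinib replicate 3 (0.107), paclitaxel replicate 1 (0.0784) and paclitaxel replicate 3 (0.0566) (median of the list −0.57, −0.57 and −0.58 in both sets). PLAUR, the urokinase receptor, measured 211, 183, 301 and 306 CPM with afatinib and 294, 293, 437 and 463 CPM with paclitaxel and was higher with paclitaxel within each set (−0.57 ± 0.05). MMP14, a membrane-bound matrix metalloprotease, differed by −0.60 ± 0.06, MMP1, a collagenase, by −0.72 ± 0.12, PLAU, urokinase, by −0.31 ± 0.06 and PLAT, tissue plasminogen activator, by −0.41 ± 0.06. The call of TIMP2 was lost with all 16 libraries in the fit, within replicates 1 and 2 alone and within replicates 3 and 4 alone, and those of MMP14, MMP1, PLAU and PLAT with limma on the authors' corrected log2 values.

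Of 15 genes of TGF-β feedback and matrix, 5 were higher with paclitaxel and 3 higher with afatinib (median −0.08, 53.3% called against 39.1% of all genes). The 3 became 1 without afatinib replicate 3. SKIL, a repressor of SMAD signalling (ENSG00000136603, chromosome 3, 170357678 to 170396835), measured 20.0, 22.9, 22.3 and 22.0 CPM with afatinib and 25.7, 32.5, 31.5 and 30.2 CPM with paclitaxel. Every paclitaxel library lay above every afatinib library (−0.46 ± 0.07, adjusted p = 2.27e-05), and SMAD6, an inhibitory SMAD, was higher with afatinib (0.70 ± 0.12). FN1, fibronectin, differed by −0.31 ± 0.05, a value of 0.10 with limma on the authors' corrected log2 table, which turns its sign without a call. Mesenchymal genes gave 6 of 9 higher with paclitaxel and 0 higher with afatinib (median −0.36). SNAI1, the repressor of E-cadherin Snail, measured 3.02, 2.57, 2.50 and 2.61 CPM with afatinib and 5.60, 5.93, 5.31 and 5.88 CPM with paclitaxel, all paclitaxel libraries being about the same and above all afatinib libraries (−1.08 ± 0.11). VIM, vimentin, differed by −0.36 ± 0.05 and ZEB1 by −0.21 ± 0.06. Epithelial genes gave 4 of 10 higher with paclitaxel, among them the keratins KRT8 (−0.32 ± 0.05) and KRT18 (−0.27 ± 0.06), and 1 higher with afatinib (median −0.22, 50% called against 39.1% of all genes). Both lists thus had a median on the side of paclitaxel. The calls of ZEB1 and KRT18 were lost within replicates 1 and 2 alone, and that of ZEB1 within replicates 3 and 4 alone and with limma on the authors' corrected log2 values.

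The tubulin genes, which encode the target of paclitaxel, did not move as a family. Of 13 tested isotypes 3 were higher with paclitaxel, 2 were higher with afatinib and 8 were not called (median −0.08), a share of 38.5% called against 39.1% of all genes. TUBB6, a class V β-tubulin (ENSG00000176014, chromosome 18, 12307669 to 12344320), measured 289, 262, 233 and 243 CPM with afatinib and 406, 386, 380.3 and 331 CPM with paclitaxel. Each paclitaxel library exceeded each afatinib library (−0.55 ± 0.05, adjusted p = 4.35e-08). TUBB2A (−0.34 ± 0.07) and TUBA4A (−0.25 ± 0.06) went the same way by less. TUBB measured 31.7, 28.9, 26.6 and 25.2 CPM with afatinib and 21.5, 19.8, 22.6 and 19.5 CPM with paclitaxel and was higher with afatinib (0.43 ± 0.07), its reads being divided over 5 identifiers so that the level is uncertain. TUBA1C was higher with afatinib as well (0.30 ± 0.08). The abundant isotypes TUBA1B (0.01 ± 0.06, adjusted p = 0.946) and TUBB4B (−0.08 ± 0.05, adjusted p = 0.227) were not called, nor were TUBA1A (−0.16 ± 0.07), TUBB3 (−0.22 ± 0.17), TUBB2B (−0.17 ± 0.17), TUBG1 (0.07 ± 0.05), TUBD1 (0.15 ± 0.10) and TUBE1 (−0.07 ± 0.08). Leaving out 1 library called TUBA1A without afatinib replicate 1 (−0.21, adjusted p = 0.0163) and paclitaxel replicate 2 (−0.20, adjusted p = 0.0247), and TUBD1 without paclitaxel replicate 2 (0.26, adjusted p = 0.035).

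Of 19 microtubule regulators 6 were higher with afatinib and 5 higher with paclitaxel (median −0.05, 57.9% called against 39.1% of all genes). The 5 became 2 without afatinib replicate 3 and 3 without paclitaxel replicate 3. DPYSL2, which encodes the tubulin-binding protein CRMP2, measured 28.5, 27.6, 32.4 and 28.9 CPM with afatinib and 14.4, 14.7, 19.4 and 18.8 CPM with paclitaxel. Every afatinib library was above every paclitaxel library (0.82 ± 0.07, adjusted p = 5.79e-09). CKAP5, a microtubule polymerase, was higher with afatinib (0.37 ± 0.05), and so was TTC5, the factor that starts autoregulated decay of tubulin mRNA (0.32 ± 0.07). TPX2, the spindle factor that activates Aurora A, measured 634, 661, 638 and 624 CPM with afatinib and 830.2, 997, 971 and 815 CPM with paclitaxel and was higher with paclitaxel without overlap (−0.50 ± 0.06). MAP4, a microtubule-associated protein, was not called (−0.05 ± 0.05, adjusted p = 0.484). The calls of TUBB2A and TUBA4A were lost within replicates 1 and 2 alone, and those of TUBA1C and TTC5 within replicates 3 and 4 alone and with limma on the authors' corrected log2 values.

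Mitotic genes were divided between the drugs, and the division ran through single pathways. Of 36 G2/M cyclins, kinases and kinesins 16 were higher with paclitaxel, 9 higher with afatinib and 11 not called (median −0.16). Of 15 genes of the spindle assembly checkpoint 5 were higher with each drug (median −0.03). CDC20, the activator of the anaphase-promoting complex that the checkpoint holds back (ENSG00000117399, chromosome 1, 43358955 to 43363203), measured 319, 328, 262 and 275 CPM with afatinib and 539, 569.9, 476 and 407 CPM with paclitaxel. It was higher in all paclitaxel libraries (−0.75 ± 0.05, adjusted p = 4.43e-10), and DMSO libraries lay at 283 to 377 CPM, near afatinib. CCNB1, cyclin B1 (ENSG00000134057, chromosome 5, 69167010 to 69178245), measured 249, 264, 243 and 252 CPM with afatinib and 383, 429, 392 and 352 CPM with paclitaxel. Its afatinib libraries were nearly alike and stood apart from the paclitaxel libraries (−0.62 ± 0.05), with DMSO at 229 to 253 CPM. CDK1, the kinase that cyclin B1 activates (ENSG00000170312, chromosome 10, 60778331 to 60794852), went the opposite way and measured 224, 222, 207 and 218 CPM with afatinib and 132, 119, 140.4 and 141 CPM with paclitaxel. Here all afatinib libraries were higher (0.71 ± 0.06, adjusted p = 1.45e-09), and DMSO libraries lay at 207 to 229.7 CPM.

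The Aurora kinases were split in the same manner. AURKB, the kinase of the chromosomal passenger complex (ENSG00000178999, chromosome 17, 8204733 to 8210600), measured 299, 267, 264 and 289.7 CPM with afatinib and 172, 147, 154 and 165 CPM with paclitaxel and was higher with afatinib (0.81 ± 0.06). AURKA, which acts at spindle poles, measured 273, 289.6, 223 and 243 CPM with afatinib and 460.1, 549, 363 and 325 CPM with paclitaxel and was higher with paclitaxel (−0.70 ± 0.07). Neither pair of groups overlapped. TOP2A, DNA topoisomerase IIα (ENSG00000131747, chromosome 17, 40388516 to 40417950), measured 521, 564, 660.2 and 668 CPM with afatinib and 290.3, 271, 383 and 407 CPM with paclitaxel, apart in the direction of afatinib (0.85 ± 0.06, adjusted p = 1.28e-10). NUSAP1, a spindle protein, was higher with afatinib as well (0.71 ± 0.05), together with UBE2C, the ubiquitin carrier of the anaphase-promoting complex (0.53 ± 0.10), and the kinetochore genes ZWINT (0.51 ± 0.05), SPC24 (0.68 ± 0.07) and SPC25 (0.80 ± 0.19). Higher with paclitaxel were PLK1, polo-like kinase 1 (−0.55 ± 0.05), the kinesins KIF20A (−0.69 ± 0.07), KIF18A (−0.55 ± 0.06) and KIF14 (−0.43 ± 0.10), the kinetochore motor CENPE (−0.47 ± 0.08) and the checkpoint gene MAD2L1 (−0.24 ± 0.05). FOXM1, a factor that drives G2/M transcription, was not called (0.00 ± 0.05, adjusted p = 0.994). The calls of SPC25 and MAD2L1 were lost within replicates 1 and 2 alone, and those of KIF14 and CENPE with limma on the authors' corrected log2 values.

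**Figure D4:**
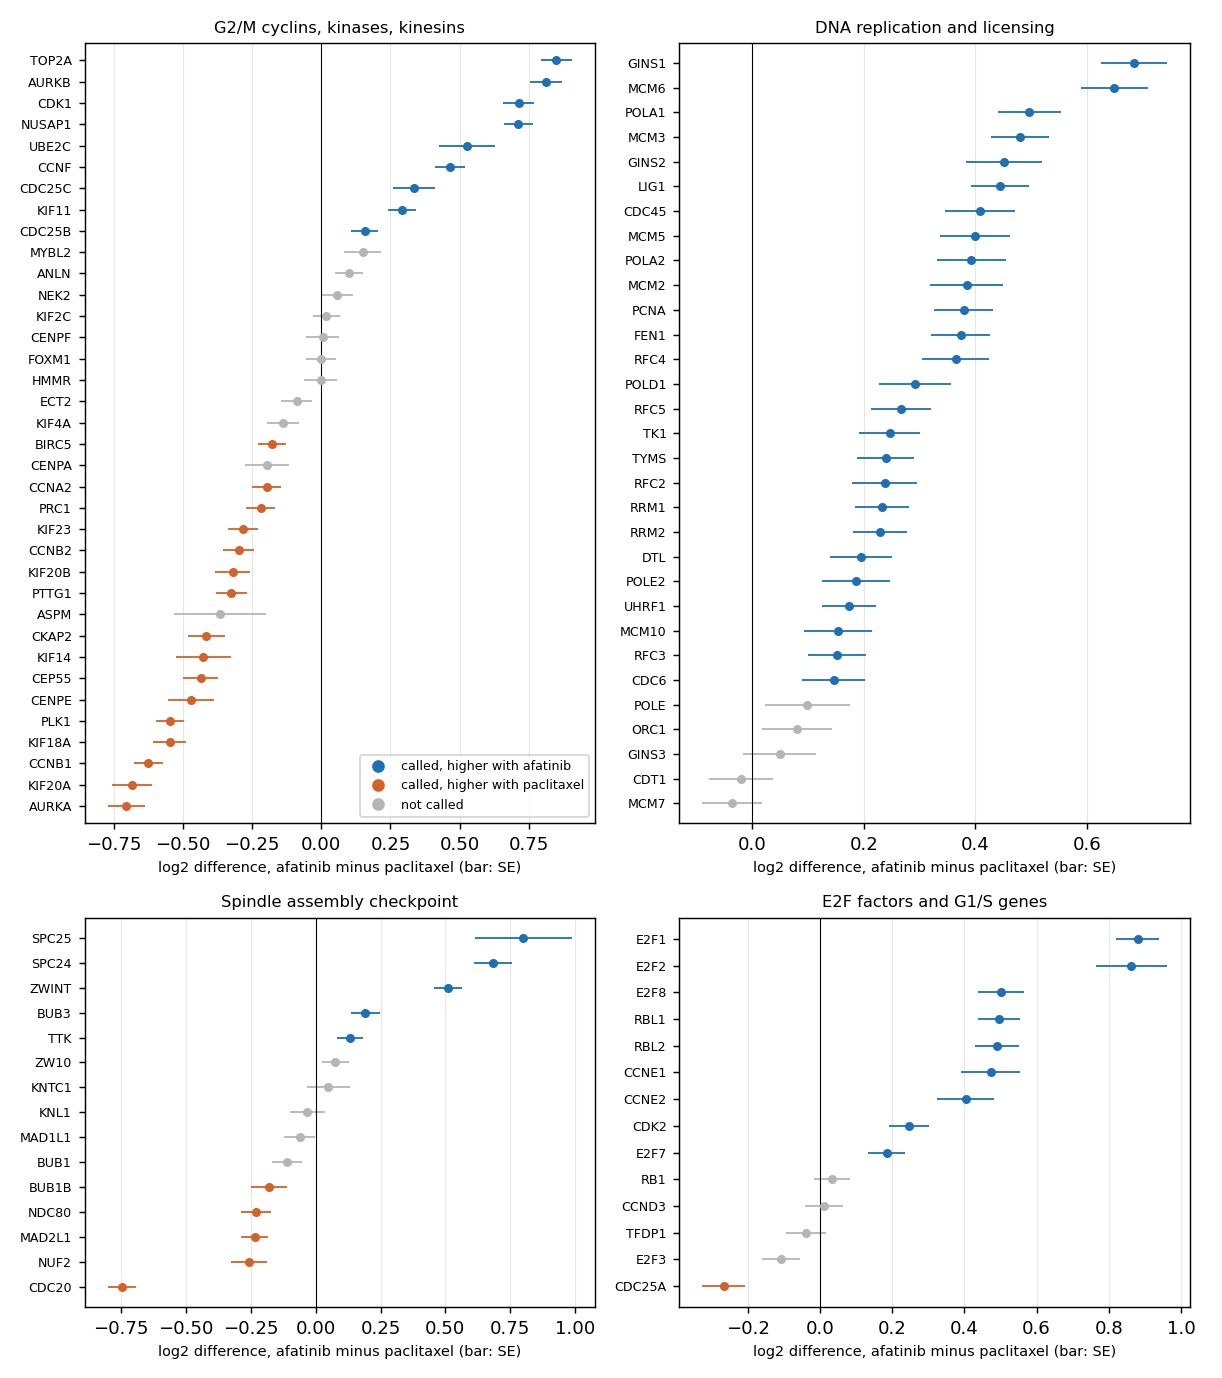
Log2 difference (afatinib minus paclitaxel, bars: SE) of the tested members of 4 cell cycle lists, 1 replication gene left out, blue where called higher with afatinib, orange where called higher with paclitaxel and grey where not called. The G2/M and checkpoint lists hold called genes on both sides of 0, while in the replication list the called genes shown are all on the side of afatinib.

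Promoters of G2/M genes often carry a CCAAT box and a cell cycle homology region. CCAAT and, for the homology region, the letters TTTGAA were searched on either strand in the 250 bases before the start. Other forms of the homology region were not searched. TTTGAA stood in 17 of 32 members with an entry (53.1%, against 13.9% of all promoters), in 5 of 8 higher with afatinib, 6 of 14 higher with paclitaxel and 6 of 10 not called. CCAAT stood in 25 of 32 members (78.1% against 32.7%), in 7 of 8 higher with afatinib, 12 of 14 higher with paclitaxel and 6 of 10 not called. Members that moved in opposite directions thus held the same letters in their promoters. CDC20 (chr1:43358831-43358980, + strand) and PLK1 (chr16:23678739-23678888, + strand), both higher with paclitaxel, and CDK1 (chr10:60778328-60778477, + strand), higher with afatinib, show this in the 150 bases before the start (RefSeq, GRCh38.p14, matches to either motif on either strand in capitals).
CDC20: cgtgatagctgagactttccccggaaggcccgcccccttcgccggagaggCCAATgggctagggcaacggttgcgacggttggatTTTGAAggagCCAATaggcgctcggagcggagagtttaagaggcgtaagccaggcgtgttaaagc
PLK1: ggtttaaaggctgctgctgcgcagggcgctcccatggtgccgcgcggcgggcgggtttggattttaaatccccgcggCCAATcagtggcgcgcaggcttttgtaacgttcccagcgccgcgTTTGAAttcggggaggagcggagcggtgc
CDK1: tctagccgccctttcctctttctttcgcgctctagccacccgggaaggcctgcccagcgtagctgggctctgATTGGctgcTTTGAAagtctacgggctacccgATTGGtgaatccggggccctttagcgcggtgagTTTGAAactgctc
Counted from the RefSeq start, TTTGAA lies 65 bases before it in CDC20, 29 in PLK1, and 69 and 13 in CDK1. The RefSeq start of CDK1 lies inside the gene as positioned by GENCODE above, and so do both of its TTTGAA matches. Windows of the same length before CCNB1, TOP2A, NUSAP1 and AURKB held CCAAT but no TTTGAA. The RefSeq starts of CDC20, CCNB1, TOP2A and AURKB also lie inside their genes as positioned by GENCODE above. The whole AURKB window and most of the CCNB1 window lie inside these genes as well.

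DNA replication genes were higher with afatinib nearly throughout. Of 32 members of the replication and licensing list, 27 were higher with afatinib, 0 higher with paclitaxel and 5 not called (MCM7, CDT1, GINS3, ORC1 and POLE), with a median of 0.26 (0.31 and 0.22 in both sets) against 0.00 over all genes. MCM6, a subunit of the replicative helicase (ENSG00000076003, chromosome 2, 135839626 to 135876426), measured 125, 117, 119 and 105 CPM with afatinib and 76.1, 68.0, 77.1 and 76.5 CPM with paclitaxel. All afatinib libraries were higher than all paclitaxel libraries, and paclitaxel replicate 2 was the lowest (0.65 ± 0.06, adjusted p = 1.54e-08). GINS1, a partner of that helicase, measured 72.5, 69.5, 59.8 and 61.7 CPM with afatinib and 42.2, 39.5, 41.1 and 41.1 CPM with paclitaxel, with almost equal values across the 4 paclitaxel libraries (0.68 ± 0.06). POLA1, DNA polymerase α, differed by 0.50 ± 0.06, MCM3 by 0.48 ± 0.05 and PCNA, the sliding clamp, by 0.38 ± 0.05. DMSO libraries were at 119 to 132 CPM for MCM6 and 59.5 to 68.5 CPM for GINS1, overlapping the range of afatinib.

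E2F factors and G1/S genes gave 9 of 14 higher with afatinib and 1 higher with paclitaxel (median 0.32). E2F1 (ENSG00000101412, chromosome 20, 33675683 to 33686404), which drives S phase genes, measured 110.2, 101, 99.4 and 97.0 CPM with afatinib and 59.4, 50.2, 54.4 and 57.9 CPM with paclitaxel. The groups were far apart relative to their spread (0.88 ± 0.06, adjusted p = 1.75e-10). E2F2 differed by 0.86 ± 0.10, E2F8, one of the repressive E2F factors, by 0.50 ± 0.06, the pocket proteins RBL1 and RBL2 by 0.50 ± 0.06 and 0.49 ± 0.06, and CCNE1, cyclin E1, by 0.47 ± 0.08. The exception was CDC25A, a phosphatase that activates CDK2, at −0.27 ± 0.06. RB1 was not called (0.03 ± 0.05, adjusted p = 0.637). Homologous recombination and Fanconi genes gave 12 of 15 higher with afatinib and 0 higher with paclitaxel (median 0.22). BRCA1 (ENSG00000012048, chromosome 17, 43044295 to 43170245) measured 77.5, 77.7, 86.4 and 76.0 CPM with afatinib and 47.5, 48.8, 49.8 and 50.8 CPM with paclitaxel. It was higher in each afatinib library, replicate 3 being the highest (0.69 ± 0.05, adjusted p = 1.45e-09). EXO1, an exonuclease of resection, differed by 0.63 ± 0.06, FANCD2 by 0.55 ± 0.05, BARD1, the partner of BRCA1, by 0.54 ± 0.07 and BLM, the Bloom helicase, by 0.51 ± 0.06. The call of CDC25A was lost within replicates 1 and 2 alone, and those of PCNA and CCNE1 with limma on the authors' corrected log2 values.

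An E2F motif (the letters TTTCGCG, the letters TTTGGCG or the letters TTTCCCG, either strand) stood in the 250 bases before the start of 13 of 30 replication genes with an entry (43.3%, against 6.05% of all promoters), in 10 of 25 that were higher with afatinib and 3 of 5 that were not called. MCM6 (chr2:135876444-135876593, - strand) and E2F1 itself (chr20:33686386-33686535, - strand) are shown as examples from these lists, with matches in capitals, 3 in MCM6, some of them overlapping, and 2 in E2F1 (RefSeq, GRCh38.p14, 150 bases before the start).
MCM6: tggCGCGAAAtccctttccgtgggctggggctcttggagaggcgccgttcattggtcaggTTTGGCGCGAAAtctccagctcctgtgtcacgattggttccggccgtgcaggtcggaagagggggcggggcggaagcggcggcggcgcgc
E2F1: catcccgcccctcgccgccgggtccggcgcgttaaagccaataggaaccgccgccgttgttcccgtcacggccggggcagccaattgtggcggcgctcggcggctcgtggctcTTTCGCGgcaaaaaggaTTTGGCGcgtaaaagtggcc
Both genes were higher with afatinib by a similar amount in each set (0.76 within replicates 1 and 2 and 0.54 within replicates 3 and 4 for MCM6, 0.96 and 0.80 for E2F1). The window of the same length before MCM3, also higher with afatinib, held no match. The RefSeq start of E2F1 lies inside the gene as positioned by GENCODE above.

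Of 13 p53 targets and cyclin kinase inhibitors 6 were higher with afatinib and 0 higher with paclitaxel (median 0.12, 46.2% called against 39.1% of all genes). The cell line is known to carry mutant p53. CDKN2C, which encodes the CDK4 and CDK6 inhibitor p18, measured 66.4, 66.1, 62.3 and 62.1 CPM with afatinib and 41.7, 42.1, 39.4 and 34.0 CPM with paclitaxel. Its groups were apart (0.71 ± 0.06, adjusted p = 1.45e-09). CDKN1A, the inhibitor p21, differed by 0.37 ± 0.07 and MDM2 by −0.06 ± 0.05 (adjusted p = 0.389). GDF15, a stress cytokine, differed by 1.01 ± 0.21 (adjusted p = 0.00353), 0.39 within replicates 1 and 2 and 1.37 within replicates 3 and 4, and its adjusted p was 0.0608 with the replicate number as a block. Among 14 BCL2 family genes and inhibitors of apoptosis 6 were higher with paclitaxel and 3 higher with afatinib (median −0.13), the 3 becoming 1 without afatinib replicate 1 or 3 or paclitaxel replicate 4. PMAIP1, the BH3 protein NOXA, measured 91.5, 78.4, 56.6 and 63.0 CPM with afatinib and 116, 113, 82.8 and 75.5 CPM with paclitaxel and was higher with paclitaxel within each set (−0.42 ± 0.06). BCL2A1, an antiapoptotic member and NF-kB target, differed by −0.76 ± 0.16, and BAK1, a pore-forming member, by −0.25 ± 0.06. BCL2L11, which encodes BIM, was not called (−0.14 ± 0.08, adjusted p = 0.155), except without afatinib replicate 2 (−0.21, adjusted p = 0.0466). The calls of GDF15 and BAK1 were lost within replicates 1 and 2 alone, that of CDKN1A within replicates 3 and 4 alone and with limma on the authors' corrected log2 values, and that of GDF15 with the replicate number as a block.

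Histone genes, clustered and replication-independent, were listed together. Most histone mRNAs are made in S phase and end in a stem loop without a poly(A) tail, while some clustered genes also give polyadenylated transcripts. Of 15 tested members of the list 10 were higher with paclitaxel and 1 higher with afatinib (median −0.92). The list holds only some of the clustered genes: over all 25 tested genes whose symbol starts with HIST, 10 were higher with paclitaxel and 1 higher with afatinib, and the median was −0.24. HIST1H2BK (ENSG00000197903, chromosome 6, 27146418 to 27146798) measured 8.13, 8.43, 6.19 and 6.25 CPM with afatinib and 21.2, 23.3, 20.7 and 17.4 CPM with paclitaxel. Paclitaxel libraries stood clear of the afatinib libraries (−1.52 ± 0.08, adjusted p = 5.28e-12), while DMSO libraries lay at 5.10 to 8.21 CPM, near afatinib. HIST1H2AC (ENSG00000180573, chromosome 6, 26124145 to 26139116) measured 3.54, 3.42, 2.02 and 2.36 CPM with afatinib and 9.19, 11.7, 11.0 and 9.06 CPM with paclitaxel, with the same order (−1.87 ± 0.13). HIST1H2BD differed by −1.17 ± 0.13 and HIST1H2BC, at under 1 CPM in all afatinib libraries, by −2.81 ± 0.25. Replication-independent variants were divided: H2AFX, whose product marks DNA breaks once phosphorylated, was higher with afatinib (0.51 ± 0.05), H2AFZ (−0.25 ± 0.05) and H3F3B (−0.26 ± 0.05) were higher with paclitaxel, and H1F0 was not called (0.07 ± 0.08, adjusted p = 0.526). Summed over all clustered histone genes the level was 41.3 ± 10.8 CPM with afatinib and 89.4 ± 5.21 CPM with paclitaxel (SD, n = 4 each; 2-sided exact permutation within sets, p = 0.0556, the smallest this design can give). Clustered histone genes resemble each other, so reads may be divided among copies, and poly(A) selection or its lack is not named in the sources used here.

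Of 30 interferon-stimulated genes 19 were higher with afatinib, 1 was higher with paclitaxel and 10 were not called (median 0.38, 0.42 and 0.32 in both sets). HERC5, the ligase that attaches ISG15 (ENSG00000138646, chromosome 4, 88457117 to 88506163), measured 28.2, 26.2, 26.5 and 25.2 CPM with afatinib and 14.2, 12.7, 15.4 and 15.1 CPM with paclitaxel. Every afatinib library lay above every paclitaxel library (0.89 ± 0.07, adjusted p = 2.45e-09), and DMSO libraries lay in between, at 19.7 to 21.7 CPM. IFIH1, the double-stranded RNA sensor MDA5, differed by 0.68 ± 0.09, APOL6 by 0.86 ± 0.07, ISG15 by 0.49 ± 0.11 and IFIT2 by 0.61 ± 0.09. TRIM25, described above, was the single member higher with paclitaxel, by more (−1.15) than any other member differed, and MX1 (−0.06 ± 0.08), IFI27 (0.06 ± 0.27) and OAS1 (0.16 ± 0.26) were not called.

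Amino acid stress genes showed both directions. ATF4, a factor translated when the kinases of the integrated stress response are active, drives genes of amino acid supply. Of 19 ATF4 targets 8 were higher with afatinib and 2 higher with paclitaxel (median 0.11), the 2 becoming 1 in 6 of the 8 leave-outs, all but those of afatinib replicates 1 and 4. CHAC1, a glutathione-degrading enzyme (ENSG00000128965, chromosome 15, 40952962 to 40956519), measured 11.7, 9.06, 7.56 and 7.61 CPM with afatinib and 3.78, 3.52, 4.43 and 4.14 CPM with paclitaxel. Afatinib libraries were all higher (1.18 ± 0.13, adjusted p = 8.38e-07), and DMSO libraries lay at 11.0 to 13.4 CPM. VLDLR differed by 0.60 ± 0.08, CEBPG by 0.33 ± 0.06 and ATF5 by 0.32 ± 0.05, while ATF4 itself was lower with afatinib (−0.24 ± 0.08, no longer called when leaving out afatinib replicate 2 (0.0658), afatinib replicate 3 (0.118), paclitaxel replicate 1 (0.101), paclitaxel replicate 2 (0.102), paclitaxel replicate 3 (0.0937) and paclitaxel replicate 4 (0.0813)) and ASNS (0.02 ± 0.11) and TRIB3 (0.07 ± 0.07) were not called. PSAT1, an enzyme of serine synthesis (ENSG00000135069, chromosome 9, 78297143 to 78330093), measured 220.3, 205, 170.1 and 177 CPM with afatinib and 116, 102, 104 and 89.9 CPM with paclitaxel, all afatinib libraries being above all paclitaxel libraries (0.90 ± 0.06, adjusted p = 9.16e-11). PSPH, the last enzyme of that route, differed by 0.41 ± 0.06, SHMT1 by 0.31 ± 0.05 and MTHFD2 by 0.29 ± 0.06, and PHGDH, its first enzyme, had at most 1 count and was not tested. In all, 4 of 10 serine and one-carbon genes were higher with afatinib and 2 higher with paclitaxel. Amino acid transporters gave 3 of 10 in each direction. In both of these lists 60% were called, against 39.1% of all genes. Among the transporters, SLC1A4 (0.54 ± 0.08) and SLC38A2 (0.40 ± 0.08) were higher with afatinib and SLC7A5 (−0.38 ± 0.05) and SLC38A1 (−0.46 ± 0.05) higher with paclitaxel. The call of ATF4 was lost within replicates 1 and 2 alone and with log2 RNA concentration added, those of ATF4 and MTHFD2 within replicates 3 and 4 alone, and those of CEBPG, ATF5, PSPH and MTHFD2 with limma on the authors' corrected log2 values.

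The amino acid response letters TGATGCAA or TGATGAAA, on either strand, stood in the 250 bases before the start of 4 of 18 ATF4 targets (22.2%, against 1.81% of all promoters), in 2 of 7 higher with afatinib, 1 of 2 higher with paclitaxel and 1 of 9 not called, and in 0 of 6 serine and one-carbon genes with an entry. Since the first list was chosen as ATF4 targets, its excess over all promoters does not bear on the drugs.

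Lipid, redox and lysosome lists each had more members called higher with afatinib than with paclitaxel. Of 10 fatty acid synthesis genes 6 were higher with afatinib and 0 higher with paclitaxel (median 0.27). FADS2, a fatty acid desaturase, measured 207, 214, 449.5 and 375 CPM with afatinib and 147, 159.5, 244 and 244 CPM with paclitaxel and was higher with afatinib within each set (0.61 ± 0.07, adjusted p = 5.71e-07). FADS1 differed by 0.45 ± 0.05 and SREBF1, the master factor of the pathway, by 0.33 ± 0.06, while FASN was not called (−0.03 ± 0.05, adjusted p = 0.693). Of 18 cholesterol synthesis genes 7 were higher with afatinib and 2 higher with paclitaxel (median 0.03, 50% called against 39.1% of all genes). The 2 became 4 without paclitaxel replicate 3. The sterol sensor INSIG1 (0.49 ± 0.06), SREBF2 (0.45 ± 0.06) and STARD4 (0.57 ± 0.07) were higher with afatinib. Targets of NRF2, the factor of oxidative stress, gave 8 of 14 higher with afatinib and 1 higher with paclitaxel (median 0.26), the 1 becoming 0 without afatinib replicate 3 or 4 or paclitaxel replicate 3 or 4. HMOX1, heme oxygenase 1 (ENSG00000100292, chromosome 22, 35380361 to 35394214), measured 96.1, 77.2, 65.1 and 68.6 CPM with afatinib and 45.9, 34.8, 39.2 and 41.3 CPM with paclitaxel, without overlap (0.92 ± 0.12, adjusted p = 0.000316). ME1 differed by 0.54 ± 0.06 and NQO1 by 0.39 ± 0.07. Of 18 lysosome and autophagy genes 10 were higher with afatinib and 3 higher with paclitaxel (median 0.17), the 3 becoming 1 without afatinib replicate 4. SQSTM1, the autophagy receptor p62, measured 731, 786, 710.4 and 705 CPM with afatinib and 512, 540.2, 551 and 526 CPM with paclitaxel, again without overlap (0.46 ± 0.05), and CTSD, cathepsin D, differed by 0.49 ± 0.06. The call of SREBF1 was lost within replicates 1 and 2 alone.

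Cytosolic heat shock proteins were mostly higher with paclitaxel, with 7 of 11 in that direction and 1 higher with afatinib (median −0.17), the 1 becoming 2 without paclitaxel replicate 2 or 3. HSPA8, the constitutive HSC70 chaperone, measured 1981, 2393, 2436 and 2016 CPM with afatinib and 3028, 3323, 3353 and 2822 CPM with paclitaxel, without overlap (−0.50 ± 0.08, adjusted p = 4.12e-05). BAG3, its cochaperone, measured 103, 102, 114 and 106 CPM with afatinib and 140.3, 157, 162 and 151 CPM with paclitaxel and differed by −0.52 ± 0.05. Endoplasmic reticulum chaperones had 4 of 15 members higher with paclitaxel and 3 higher with afatinib (46.7% called, near the 39.1% of all genes). The 4 became 1 without afatinib replicate 4 and 2 without paclitaxel replicate 4, and the 3 became 1 without afatinib replicate 3. HSPA5, which encodes BiP, was not called (−0.32 ± 0.12, adjusted p = 0.0599), but was without afatinib replicate 1 (−0.45, adjusted p = 1.64e-06) and afatinib replicate 2 (−0.23, adjusted p = 0.0281). Of 20 cytosolic ribosomal protein genes 11 were higher with paclitaxel and 0 higher with afatinib (median −0.16), the 11 becoming 6 without afatinib replicate 3. RPL5 (−0.30 ± 0.06) and RPL3 (−0.29 ± 0.06) had the smallest p. Of 13 mitochondrially encoded mRNAs 1 was called, MT-CO3 (−0.65 ± 0.13, adjusted p = 0.0047), which was higher with paclitaxel. This call was lost without afatinib replicate 1 (0.0504), and 8 of the 13 were called higher with paclitaxel without paclitaxel replicate 3. The calls of RPL5 and RPL3 were lost within replicates 1 and 2 alone, and that of MT-CO3 with limma on the authors' corrected log2 values.

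FOXO factors enter the nucleus when AKT is inactive. Of 16 of their targets 5 were higher with afatinib and 4 higher with paclitaxel (median 0.00, 56.25% called against 39.1% of all genes). The 5 became 3 without afatinib replicate 3 or paclitaxel replicate 3. INSR, the insulin receptor, measured 12.7, 15.3, 31.3 and 22.8 CPM with afatinib and 9.01, 7.30, 13.7 and 14.6 CPM with paclitaxel and was higher with afatinib within each set (0.86 ± 0.10), whereas IRS2 (−0.35 ± 0.06) and TXNIP (−0.50 ± 0.07) were higher with paclitaxel. Genes of hypoxia and glycolysis gave 6 of 17 higher with afatinib and 2 higher with paclitaxel (median 0.00, 47.1% called against 39.1% of all genes), the 2 becoming 1 without afatinib replicate 4. BNIP3, a mitophagy receptor, measured 123, 135, 99.9 and 98.7 CPM with afatinib and 81.6, 84.1, 70.6 and 65.9 CPM with paclitaxel, without overlap (0.59 ± 0.05). PDK1, pyruvate dehydrogenase kinase 1, differed by 0.57 ± 0.07 and EGLN3, a prolyl hydroxylase of HIF, by 0.75 ± 0.11, but LDHA (−0.07 ± 0.05) and PGK1 (0.00 ± 0.05) were not called. Among 7 efflux transporters (42.9% called) ABCC3 was higher with afatinib (above), and ABCG2 (−0.56 ± 0.10) and ABCC4 (−0.20 ± 0.05) were higher with paclitaxel, the last with a value of 0.011 and no call with limma on the authors' corrected table. The calls of IRS2, ABCG2 and ABCC4 were lost within replicates 1 and 2 alone, that of ABCC4 within replicates 3 and 4 alone, and those of IRS2 and ABCC4 with limma on the authors' corrected log2 values.

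**Figure D5:**
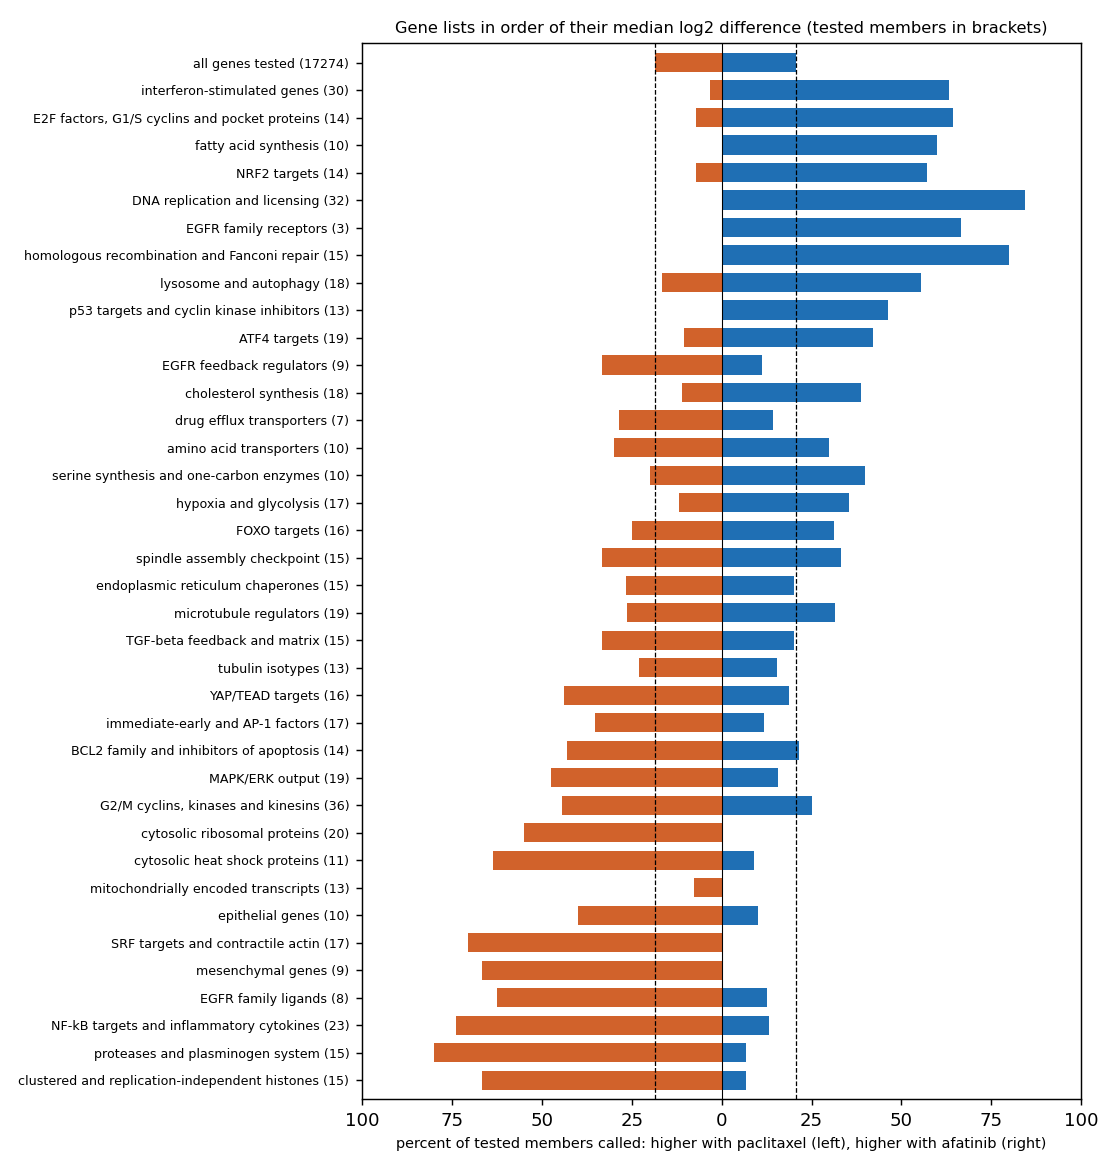
Percent of the tested members of 37 gene lists called higher with paclitaxel (orange, to the left) or with afatinib (blue, to the right), in order of the median log2 difference, with the number of tested members in brackets. Dashed lines mark the shares over all 17274 tested genes, 18.5% and 20.6%. Replication and homologous recombination genes reach furthest to the right and proteases and NF-kB targets furthest to the left.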

How the data were processed

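RNA from MDA-MB-231 cells was sequenced in 16 libraries, 4 per treatment, of which the 8 with a single drug were compared. The authors deposited whole-number counts per gene and a log2 table corrected for RNA concentration. Reads were handled with STAR 2.7.5b and featureCounts (Subread 2.0.1) on hg38, per the submitters' processing notes; annotation, strand setting and the form of the correction are not given in the sources used here. Names and positions came from the files' identifiers and from GENCODE v29 (36220 identifiers matched). Promoters came from RefSeq on GRCh38.p14, whose gene starts can differ from those of GENCODE. 171 rows without a symbol held under 0.05% of counts.

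Genes were kept with filterByExpr (10 counts, total of 15), scaled with TMM and tested with edgeR 4.0.16 (R 4.3.3; robust quasi-likelihood F-test, drug plus concentration set). Adjusted p is Benjamini-Hochberg over all 17274 genes tested, and every adjusted p in the text comes from this test unless another is named. SE is the log2 difference divided by the root of F. CPM for display were scaled over all 16 libraries. On simulated data 98 of 100 genes changed 1.5-fold and 100 of 100 changed 2-fold were called, with 5 false calls over 17055 genes. These counts describe that simulation only. The share of changes found and of false calls in the sequenced libraries, where spread differs widely between genes, was not tested. Totals of 28366004 to 45406782 counts and a biological coefficient of variation of 6.78% set the precision. Libraries of a group differed by 6.62 to 198 times sampling noise (chi-square per gene), so none was a repeat deposit. Replicate numbers are shared by both drugs. Deviations of same-numbered libraries correlated at 0.698, 0.556, 0.560 and 0.651, which meets the rule used for pairing (over 0.1 in every pair). Differently numbered libraries of the same set correlated at 0.510, 0.473, 0.641 and 0.436, so this rule cannot tell pairs from sets. The labels tie the numbers to nothing. Once set means were removed the values for same-numbered libraries were 0.26, 0.26, 0.075 and 0.075, equal within each set by construction.

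The members and gene lists were chosen with earlier results of these data known, so no list is tested. Named by rule were the 15 genes with the largest called difference in each direction (average log2 CPM of 3 or more, 1 identifier, same sign in both sets), every tested receptor, ligand and tubulin gene, up to 5 members with the smallest p of each other list, and 5 genes by the test between sets. A further 53 of the 227 genes named were chosen after their values were seen, and some genes the rule names are not reported here. TUBB, SPC25 and ABCC1 lie on several identifiers and the highest is given. Alternatives were RLE scaling, DESeq2 1.42.0, no filter, all 16 libraries, no set term, a replicate block, concentration as a covariate, each set alone, limma 3.58.1 on the deposited log2 table, and leaving out each library. DMSO and combination libraries entered only the fit of all 16 libraries, the scaling of CPM for display and, for DMSO, the description of levels.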

Additional observations from a re-analysis of the deposited data

Results flagged for a closer look

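Single libraries stood apart from the other 3 of their group, by the gap to the nearest library relative to the range of the group, for 12 of 458 groups of 4 examined. Chance alone marks about 1 in 20 groups. Among called genes, BRCA1 was highest in afatinib replicate 3 (86.4 CPM, nearest 77.7), MCM6 lowest in paclitaxel replicate 2 (68.0, nearest 76.1), POLA1 lowest in afatinib replicate 2 (47.7, nearest 52.8), SPC24 lowest in afatinib replicate 2 (23.4, nearest 27.8) and NEURL1B lowest in afatinib replicate 1 (11.8, nearest 19.2). CCNE1 was highest in paclitaxel replicate 1 (15.5 CPM, nearest 13.8), ISG15 highest in paclitaxel replicate 1 (42.1, nearest 29.6) and IL1A highest in afatinib replicate 2 (5.97, nearest 5.03).

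Of the growth response genes, EGR1 measured 244 CPM in afatinib replicate 1, where the nearest library of the group had 34.4, and 182 CPM in paclitaxel replicate 1, where the nearest had 41.2. FOS measured 17.7 CPM in paclitaxel replicate 1 (nearest 8.51), and MYC 184 CPM in afatinib replicate 1 (nearest 155). No cause of these values was tested.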

How the results depend on the processing

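The counts depended most on the concentration set. Without the set term 853 genes were called (513 higher with afatinib, 340 higher with paclitaxel, 9 beyond 1.5-fold). Within replicates 1 and 2 alone 2789 were called (1581, 1208 and 18), and within replicates 3 and 4 alone 4933 (2537, 2396 and 177). Each set alone held fewer libraries than the reported fit, with the same number in both sets. The replicate block called 7897 genes (4119 and 3778), 6747 of them shared with the 6755 and in the same direction; of the genes named it ended the calls of CCRN4L, GDF15 and TUFT1 and no other. Counts beyond 1.5-fold, 208 in the reported fit, were 300 with the block and 305 without the filter. Other settings called 5935 to 6840 genes, and leaving out 1 library 5664 to 6559. Genes called for a difference between sets numbered 0 to 10 when 1 library was left out. The share of calls higher with afatinib ranged from 49.1% to 60.1% (52.8% as reported). Of 188 called genes named in the text, 96 lost the call without the set term, 30 within replicates 1 and 2, 12 within replicates 3 and 4, and 21 with limma on the authors' log2 table, where FN1 (0.10) and ABCC4 (0.011) also changed sign. RLE scaling lost 0, and DESeq2, no filter and all 16 libraries 1 each. The cause was not tested. Genes near or under 1 CPM, such as SPC25 and EGR2, rest on few counts.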

Other observations

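Transcript classes differed in their counts. Of 1246 tested processed pseudogenes 176 were higher with paclitaxel and 19 higher with afatinib (median difference −0.20), while of 900 antisense genes 122 were higher with afatinib and 49 higher with paclitaxel (median 0.11), and of 13019 protein-coding genes 3164 were higher with afatinib and 2739 with paclitaxel (median 0.01). Over all 17274 tested genes, 18.5% were higher with paclitaxel and 20.6% higher with afatinib. Processed pseudogenes and antisense genes were both called less often than this in either direction. Reads of processed pseudogenes may belong to their parent genes, and reads of antisense genes cannot be told from those of the opposite gene where strand was not used. Among genes split by length into 4 classes of near equal size, the shortest had a median of −0.05 and the others 0.02, 0.01 and 0.02.

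DMSO libraries lay on either side of the comparison. Of the 3566 genes called higher with afatinib, the DMSO mean was nearer to afatinib for 2056 and nearer to paclitaxel for 1510. Of the 3189 called higher with paclitaxel, it was nearer to paclitaxel for 1734 and nearer to afatinib for 1455. These counts describe levels and no drug was tested against DMSO here.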
